A study of Mus musculus with 6 samples.

Results

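The 31 genes described here build and load the amino acid side of protein synthesis: 20 cytosolic aminoacyl-tRNA synthetase genes, the scaffold genes Aimp1 and Aimp2, the asparagine synthetase gene Asns, 7 amino acid transporter genes and Sesn2. They were chosen by function, with earlier results of these data known, from a list of Ensembl gene identifiers. Matched before the version suffix, all 31 were found among the 22322 genes of the deposited table. The table itself carries no gene symbols, so the symbols are those of that list. The comparison is between ribosome footprints in activated and in resting T cells, that is, between 3 libraries of each. Ribosome profiling sequences the stretches of mRNA that ribosomes protect. A count in coding sequence (CDS) is therefore read as a fragment of mRNA that was under a ribosome. Whether each fragment came from a ribosome was not checked.

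Resting and activated cells were both primary CD4+ T cells, untreated, at 0 h, from female C57BL/6J mice 6 weeks old. They came from spleen and lymph nodes and were enriched by negative selection. Activated cells had been stimulated with beads carrying CD3 and CD28 antibodies, and how long is not stated in the sources used here. Replicates are numbered 2, 3 and 4 in both groups, and nothing says whether a replicate is 1 mouse or a pool, so a p-value here speaks to the spread among these libraries and no further. The study followed mRNA loss with and without translation, and these libraries are its untreated state. CDS counts per library ranged from 437200 to 1074656, of which 1947 to 16073 lay on the 31 genes. Markers of T cells and of other cell types could not be checked, because the table and the reference given do not pair Ensembl identifiers with symbols.

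Aminoacyl-tRNA synthetases attach each amino acid to its tRNA, and they fall into class I and class II by the fold of their catalytic domain. Several of them sit together with the scaffolds Aimp1 and Aimp2 in the multisynthetase complex. Amino acids enter the cell through solute carriers, among them the heterodimer of Slc7a5 and Slc3a2 that takes up leucine and other large neutral amino acids. When amino acids run short or demand rises, the transcription factor Atf4 binds C/EBP-ATF response elements in many of these genes, and T cells are known to raise amino acid uptake when they are activated.

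Promoter sequence was used for 21 of the 31 genes, as RefSeq windows of build GRCm38.p6 that run from 250 bases before to 50 bases after a transcript start. No window was used for Cars, Hars, Lars, Nars, Rars, Slc1a5, Slc38a1, Slc7a5, Vars and Wars. Windows on chromosome 18, where Hars, Lars and Nars lie, were left out for the members but kept in the shares over all genes. The letters TGATGNAA, a core of the C/EBP-ATF response element searched on both strands, were found in 7 of the 21: Aars, Asns, Gars, Iars, Slc7a11, Tars and Yars. Over all 26994 genes with such a window, 4.51% held them (3.97% of 32817 windows). The stricter TGATGCAA, every match to which is also a match to TGATGNAA, was found in 5 of the 21 (Aars, Iars, Slc7a11, Tars and Yars) against 1.03% of all genes. The E-box CACGTG, the palindrome that Myc binds, was found in Aars, Farsb, Iars and Tars, 4 of 21 against 8.09% of all genes. A match is a run of letters and not a measured binding site.

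Stretches around some of these matches are shown because members with TGATGNAA are compared with the rest further on. That comparison leaves out Slc7a11, which could not be tested, and none was made by E-box. Each is read along the gene's own strand, with the match in capitals, and a match may lie on either strand.

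Gars, chr6:55037961-55037988, plus strand, match starting 30 bases before the start site: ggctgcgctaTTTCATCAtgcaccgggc
Tars, chr15:11399656-11399683, minus strand, 15 bases before: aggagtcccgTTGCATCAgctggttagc
Asns, chr6:7693215-7693242, minus strand, 23 bases before: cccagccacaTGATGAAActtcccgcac
Slc7a11, chr3:50443662-50443689, minus strand, 66 bases before: ctcatgtggcTGATGCAAacctggagaa
Slc7a11, chr3:50443643-50443670, minus strand, 47 bases before: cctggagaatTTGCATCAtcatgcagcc
Iars, chr13:49682127-49682154, plus strand, match at position 8 of the transcript: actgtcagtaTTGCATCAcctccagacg
Yars, chr4:129189896-129189923, plus strand, match at position 4 of the transcript: cgagctcagcTGATGCAAcccgacggga
Farsb, chr1:78488920-78488947, minus strand, E-box 39 bases before: tagacaggcatCACGTGagacagcccaa

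Of the sequences shown, 2 belong to Slc7a11, 1 match on each strand.

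CDS footprints rose for each of the 30 members that could be tested, and fell for 0 of them. Across all 6775 genes tested, 24.1% rose and 21.6% fell, 45.7% in all (adjusted p under 0.05). Adjusted p-values are from the quasi-likelihood test of edgeR, corrected by Benjamini-Hochberg over those 6775 genes. Levels are CPM, CDS counts scaled to a common library total, on library sizes scaled by the trimmed mean of M values (TMM). Rises of at least 2-fold numbered 24 of 30, against 14.7% of genes, and rises of at least 4-fold 13 of 30, against 4.22%. Every activated library lay above every resting library for the 30 members, which held for 28.1% of genes. The median log2 change was 1.79 over the 30 members and -0.04 over all genes tested.

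Some members passed the filter on low counts only because of the activated libraries. The minimum was reached in all resting libraries by 28 of the 31 members, and not by Asns, Sesn2 or Slc7a11. Of these 28, 28 rose, with a median log2 change of 1.67. Asns and Sesn2, at log2 changes of 2.26 and 2.82, are counted among both the 24 rises of at least 2-fold and the 13 of at least 4-fold. They entered those counts with the help of their activated libraries. The share that rose among all genes limited to the same minimum was not computed. Scaling moved the size of the change: with library totals alone the median of all genes was -0.38 and that of the members 1.45, and 26 of 30 rose, while Dars, Farsa, Qars and Aimp1 missed the threshold with adjusted p of 0.204, 0.0590, 0.288 and 0.0721. A change of scaling shifts all genes together, so the distance between the 2 medians, 1.82 with TMM, does not depend on it. No member changed direction under any scaling run.

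The members held 0.445%, 0.469% and 0.516% of CDS counts in resting libraries 2, 3 and 4. In activated libraries 2, 3 and 4 they held 1.53%, 1.46% and 1.496%. The 95% Wilson intervals, which cover counting error only, ran from 0.498% to 0.534% for the highest resting library and from 1.43% to 1.48% for the lowest activated library. The mean share was thus 3.14 times as high in activated cells, at 1.49 ± 0.04% against 0.477 ± 0.036% (SD, n = 3). Synthetases alone went from 0.334 ± 0.019% to 0.912 ± 0.031%, and transporters from 0.127 ± 0.017% to 0.540 ± 0.028% (SD, n = 3). These are shares of footprints in a bulk sample. More cells with an mRNA, more mRNA per cell and more ribosomes per mRNA cannot be told apart. No mRNA level was compared here, and the same limit holds for every footprint change below.

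**Figure D1:**
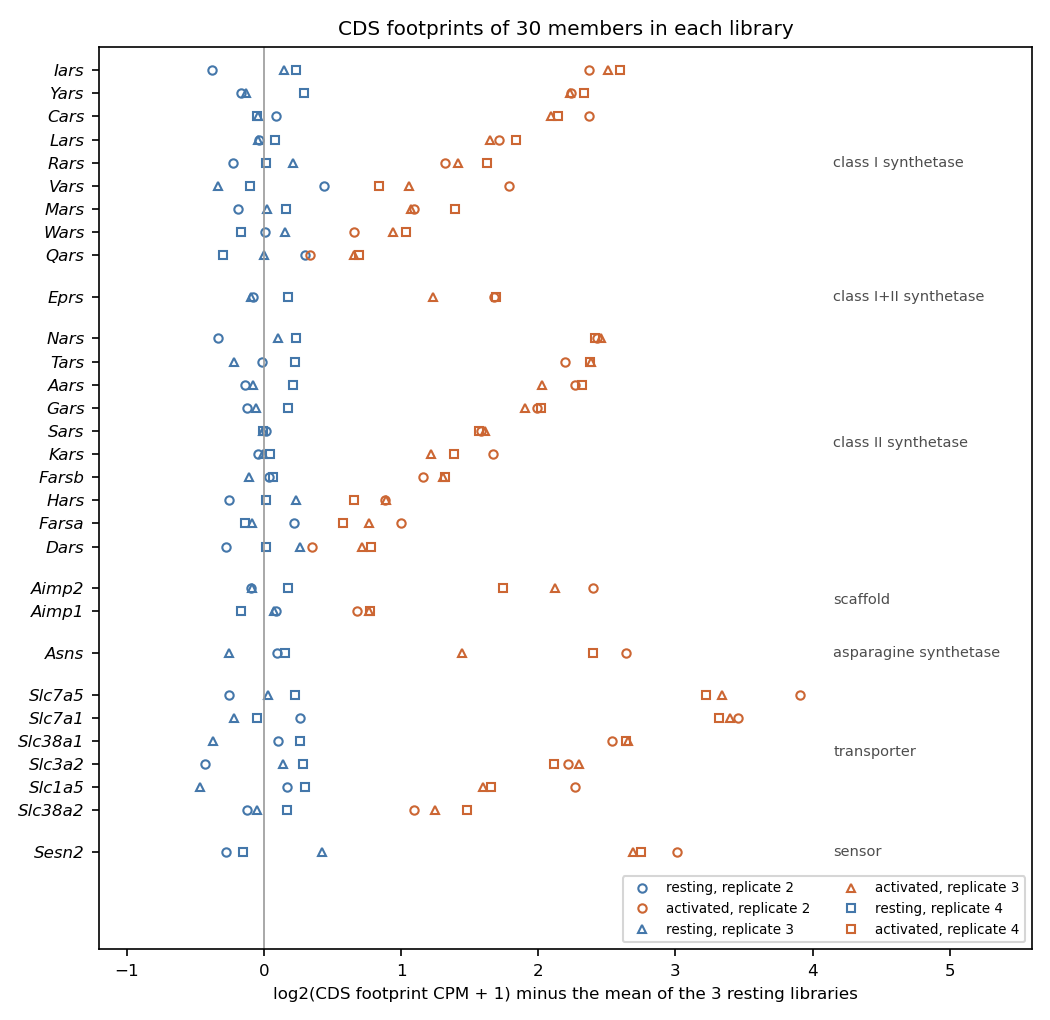
CDS footprints of the 30 members tested, as log2(CPM + 1) minus the mean of the 3 resting libraries of the same gene, by role; each symbol is 1 library. Activated libraries lie to the right of all resting libraries in every row, closest in Qars (129.5 CPM in activated replicate 2 and 126 in resting replicate 2) and farthest in Slc7a5 and Slc7a1.

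Among the 9 class I synthetases, Iars and Yars rose most. Iars (ENSMUSG00000037851), which charges tRNA with isoleucine, had 130.4, 188 and 199.8 CPM in resting libraries 2, 3 and 4 and 884, 972 and 1034 CPM in activated libraries 2, 3 and 4. It rose by 2.47 on the log2 scale (standard error, SE, 0.17; edgeR adjusted p = 1.70e-08). Yars (ENSMUSG00000028811), the tyrosine enzyme, had 56.8, 58.4 and 78.4 CPM in resting and 304, 303 and 326 CPM in activated libraries. Its log2 change was 2.26 with an SE of 0.18 (edgeR adjusted p = 6.38e-08). For both genes the lowest activated library was several times above the highest resting library.

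Qars and Wars moved least in this class. Qars (ENSMUSG00000032604), the glutamine enzyme, had 126, 102 and 83.0 CPM in resting and 129.5, 162 and 166 CPM in activated libraries. The groups only just separated, and the log2 change of 0.58 (SE 0.19, edgeR adjusted p = 0.0209) is the lowest of all members. Its call did not hold without resting replicate 3 (adjusted p = 0.0644), resting replicate 4 (0.123) or activated replicate 3 (0.0561), nor with DESeq2 (0.0606) or upper quartile factors (0.0675). Wars, the tryptophan enzyme, had 111, 123 and 98.4 CPM in resting and 175, 214 and 228 CPM in activated libraries, a log2 change of 0.90 with an SE of 0.17 (edgeR adjusted p = 5.41e-04). Its activated libraries were all above its resting libraries.

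The other class I members lay between these pairs. Cars, the cysteine enzyme, rose by 2.21 on the log2 scale, with 109 ± 6.18 CPM in resting and 504 ± 52.6 CPM in activated cells (SD, n = 3). Lars, the leucine enzyme, rose from 186 ± 9.42 to 620.4 ± 41.1 CPM, a log2 change of 1.74. Rars, the arginine enzyme, rose by 1.46 and Mars, the methionine enzyme, by 1.19 on the log2 scale. Vars, the valine enzyme, rose by 1.25 with the widest error of the synthetases (SE 0.24): its replicate 2 was highest in both groups, at 206 CPM against 120.0 and 141 in resting, and 527 CPM against 318 and 273 in activated cells. Eprs encodes 1 protein with a class I domain for glutamate and a class II domain for proline, and it had 217, 214 and 258 CPM in resting and 736, 539 and 741 CPM in activated libraries. It rose by 1.54 on the log2 scale with an SE of 0.17 (edgeR adjusted p = 1.53e-06), and the groups did not overlap.

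Class II synthetases spanned nearly the same range. Nars (ENSMUSG00000024587), the asparagine enzyme, had 208, 282 and 309 CPM in resting and 1420.2, 1451 and 1403 CPM in activated libraries. It rose by 2.41 on the log2 scale (SE 0.16, edgeR adjusted p = 1.41e-08), and its activated libraries differed from each other by less than its resting ones did. Tars (ENSMUSG00000022241), the threonine enzyme, had 153, 133 and 181 CPM in resting and 713, 813 and 809 CPM in activated libraries, a log2 change of 2.32 with an SE of 0.16 (edgeR adjusted p = 1.67e-08). Aars, the alanine enzyme, rose by 2.20 and Gars, which makes both the cytosolic and the mitochondrial glycine enzyme, by 1.97. Aars went from 221 ± 29.97 to 1022 ± 108 CPM and Gars from 255 ± 28.8 to 998 ± 42.6 CPM (SD, n = 3).

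Dars and Farsa were the class II members with the smallest rise. Dars, the aspartate enzyme, had 111, 162 and 137 CPM in resting and 173, 223 and 233 CPM in activated libraries, a log2 change of 0.62 with an SE of 0.18 (edgeR adjusted p = 0.0111). The gap between its groups was small beside the spread within them, and without resting replicate 2 the adjusted p was 0.0635 at a log2 change of 0.50. Farsa, the alpha subunit of the phenylalanine enzyme, had 98.8, 79.5 and 76.9 CPM in resting and 170.4, 145 and 127 CPM in activated libraries, a log2 change of 0.78 with an SE of 0.19 (edgeR adjusted p = 0.00332). Hars, the histidine enzyme, rose by 0.79; its annotated span overlaps that of the mitochondrial Hars2, so its counts are less certain. Farsb, the beta subunit of the phenylalanine enzyme, rose by 1.28, Kars, which serves lysine in cytosol and mitochondria, by 1.43, and Sars, the serine enzyme, by 1.59. Relative to its mean Sars had the smallest spread of the 30 in both groups, at 235 ± 2.31 CPM in resting and 709 ± 11.2 CPM in activated cells (SD, n = 3).

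Class and complex did not split the synthetases clearly. The median log2 change was 1.46 over 9 class I and 1.51 over 10 class II genes. It was 1.44 over the 8 synthetases of the multisynthetase complex (Dars, Eprs, Iars, Kars, Lars, Mars, Qars and Rars) and 1.78 over the 12 outside it. The complex spanned 0.58 to 2.47 and the rest 0.78 to 2.41. These medians describe lists that overlap widely, and no test between them was run.

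The 2 scaffolds differed. Aimp1, which also gives rise to a secreted cytokine, had 73.6, 73.0 and 61.5 CPM in resting and 111, 118 and 119 CPM in activated libraries, a log2 change of 0.75 with an SE of 0.19 (edgeR adjusted p = 0.00374). Aimp2 had 42.1, 42.2 and 50.7 CPM in resting and 241, 199 and 152 CPM in activated libraries, a log2 change of 2.10 with an SE of 0.22 (edgeR adjusted p = 1.06e-06). Within a library, Aimp2 had 57.1, 57.8 and 82.5 CDS counts per 100 of Aimp1 in resting libraries 2, 3 and 4, and 216, 168 and 128 in activated libraries 2, 3 and 4. The ratio was higher in every activated library.

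Farsa and Farsb, whose products form 1 enzyme, were compared in the same way. Farsb had 74.5, 83.7 and 98.0 counts per 100 of Farsa in resting and 94.7, 123 and 143 in activated libraries. The groups overlapped. A ratio of counts between 2 genes depends on their lengths, but its change between groups does not. These ratios, and those of the transporters further on, were chosen after the log2 changes had been seen, so they are descriptions. An exact permutation test over the libraries gave p = 0.2 for Farsb over Farsa, with an adjusted p of 0.2 over the 4 ratios. The same exact permutation test gave p = 0.1 for Aimp2 over Aimp1, Slc7a5 over Slc3a2 and Slc38a1 over Slc38a2 (adjusted p = 0.133). With 3 libraries per group this exact permutation test cannot give a p under 0.1, so it cannot decide whether a ratio changed.

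**Figure D2:**
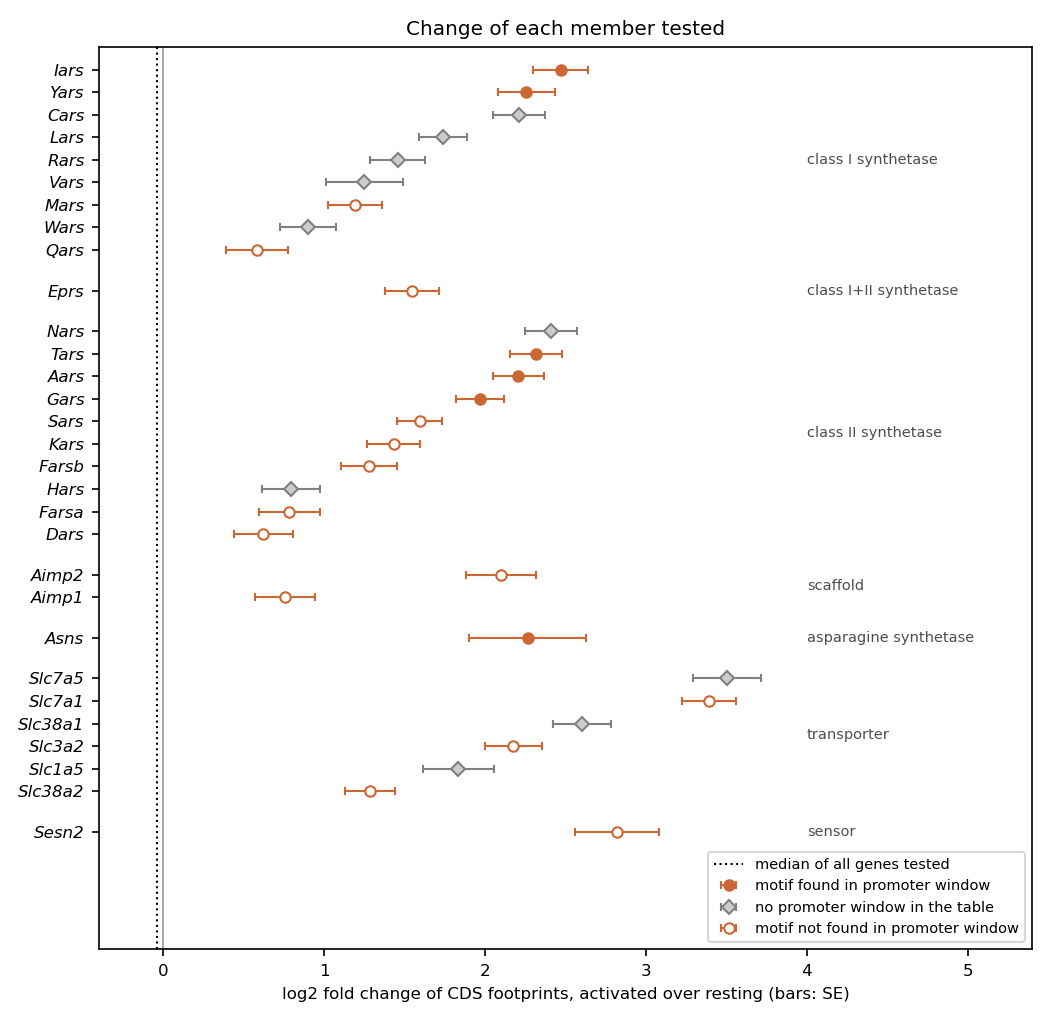
Log2 fold change of CDS footprints, activated over resting, for the 30 members tested, with the standard error as a bar. Filled circles hold the letters TGATGNAA in their promoter window, open circles do not, and for diamonds no window was used. All values lie right of the dotted median of all genes tested (-0.04). Among synthetases whose window was used, the 5 filled circles (1.97 to 2.47) lie right of the 8 open ones (0.58 to 1.59).

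Among the 13 synthetases whose promoter window was used, those with TGATGNAA had the larger changes. The log2 changes of Aars, Gars, Iars, Tars and Yars ran from 1.97 to 2.47, with a median of 2.26. Those of the 8 synthetases with a window used but no match (Dars, Eprs, Farsa, Farsb, Kars, Mars, Qars and Sars) ran from 0.58 to 1.59, with a median of 1.23. The ranges did not overlap. The 7 synthetases for which no window was used spanned 0.79 to 2.41, so the split covers 13 of 20 genes only. Among these 7 are Hars, Lars and Nars, left out with chromosome 18, and Nars, at 2.41, lies within the range of the matches. Outside the synthetases the ranges overlapped: Asns has the letters and changed by 2.26, while Slc7a1, Sesn2, Slc3a2, Aimp2, Slc38a2 and Aimp1 lack them in their windows and changed by 3.39, 2.82, 2.18, 2.10, 1.28 and 0.75. The split was made after the log2 changes had been seen, and it is given as a description with no test.

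Asns (ENSMUSG00000029752) makes asparagine from aspartate and glutamine. Its counts were low, with 7, 7 and 10 CDS counts in resting libraries 2, 3 and 4 and 40, 31 and 72 in activated libraries 2, 3 and 4. This is 14.7, 11.4 and 15.4 CPM in resting and 90.9, 39.0 and 76.6 CPM in activated libraries, with a log2 change of 2.26 with an SE of 0.36 (edgeR adjusted p = 9.63e-05). The spread between activated libraries was wide, and the lowest of them was still above every resting library. Asns passed the filter on low counts only through its activated libraries.

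The 2 highest log2 changes among the members were those of the transporters Slc7a5 and Slc7a1. The 6 transporters that could be tested ran from 1.28 to 3.504, with a median of 2.39, and overlapped the synthetases. Slc7a5 (ENSMUSG00000040010), the light chain that carries large neutral amino acids, had 75.7, 92.5 and 106 CPM in resting and 1377, 925 and 854 CPM in activated libraries. It rose by 3.504 on the log2 scale (SE 0.21, edgeR adjusted p = 3.34e-09), or 11.3-fold, and stood 58th from the top among the 6775 genes. Activated replicate 2 was well above the other two, and without it the log2 change was 3.29. Slc7a1 (ENSMUSG00000041313), which carries arginine and lysine, had 175, 125 and 139.9 CPM in resting and 1599.7, 1539.9 and 1452 CPM in activated libraries. It rose by 3.39 (SE 0.17, edgeR adjusted p = 2.68e-10), or 10.5-fold, with little spread, and stood 67th.

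Slc3a2 encodes the heavy chain that pairs with Slc7a5 and with Slc7a11. It had 326, 483 and 533 CPM in resting and 2036, 2155 and 1903 CPM in activated libraries, a log2 change of 2.18 with an SE of 0.18 (edgeR adjusted p = 8.38e-08). Slc7a5 had 23.2, 19.1 and 19.9 CDS counts per 100 of Slc3a2 in resting and 67.6, 42.9 and 44.9 in activated libraries. The ratio of light to heavy chain footprints was thus 2.50 times as high in activated cells and higher in each activated library. Slc3a2 also had 665 counts in introns over the 6 libraries, more than any other member; they were 27, 29 and 36 in resting and 116, 224 and 233 in activated libraries.

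Slc7a11, the light chain that exchanges cystine for glutamate, had the fewest CDS counts. No resting library held a footprint on it (0 counts), and 1, 7 and 13 fell in activated libraries 2, 3 and 4, so it did not pass the filter. With 3 counts set as a floor for the resting group, the pooled activated level was 5.61 times that floor (9.66 against 1.72 CPM). No error on the activated counts enters this figure, and activated replicate 2 alone stood at 2.27 CPM. Of its 21 activated counts, 13 came from 1 library. It is the member whose promoter window holds TGATGCAA on both strands.

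Slc38a1 and Slc38a2 carry glutamine and other small neutral amino acids with sodium. Slc38a1 had 90.4, 64.9 and 101 CPM in resting and 493, 534 and 530.1 CPM in activated libraries, a log2 change of 2.60 with an SE of 0.18 (edgeR adjusted p = 1.61e-08). Slc38a2 had 263, 277 and 323 CPM in resting and 614, 683 and 800.5 CPM in activated libraries, a log2 change of 1.28 with an SE of 0.16 (edgeR adjusted p = 5.51e-06), the smallest among the transporters. Slc38a1 had 34.4, 23.4 and 31.4 counts per 100 of Slc38a2 in resting and 80.4, 78.3 and 66.2 in activated libraries. Each activated ratio was above each resting ratio.

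Slc1a5, which exchanges glutamine for other neutral amino acids, had 114, 73.0 and 124 CPM in resting and 491, 308 and 321 CPM in activated libraries. Its log2 change was 1.83 (SE 0.22, edgeR adjusted p = 5.37e-06). Activated replicate 3 or 4 was the highest library for most members. For Slc1a5 it was activated replicate 2, as for Cars, Farsa, Kars, Vars, Aimp2, Asns, Slc7a5, Slc7a1 and Sesn2. That library also had the lowest CDS total among the activated ones and a 5' UTR total equal to 20.0 per 100 of its CDS total, against 13.97 to 15.5 in the other 5; whether this bears on its high values was not tested. Sesn2 (ENSMUSG00000028893) encodes a leucine-binding protein that restrains mTORC1 when leucine is scarce. It had 12.6, 21.1 and 13.8 CPM in resting and 132, 106 and 110 CPM in activated libraries, a log2 change of 2.82 with an SE of 0.26 (edgeR adjusted p = 3.53e-07). Its resting values rest on 6, 13 and 9 counts, and the activated values on 58, 84 and 103.

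**Figure D3:**
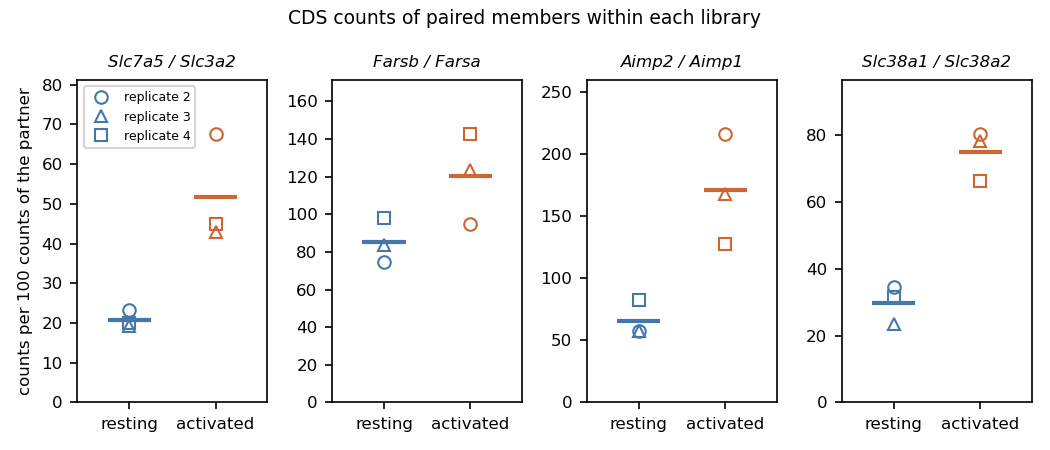
CDS counts of 1 member per 100 counts of its partner in the same library, with a bar at the mean of 3 libraries; each panel has its own axis from 0. Activated libraries lie above all resting libraries for Slc7a5 over Slc3a2, Aimp2 over Aimp1 and Slc38a1 over Slc38a2, and overlap them for Farsb over Farsa.

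**Figure D4:**
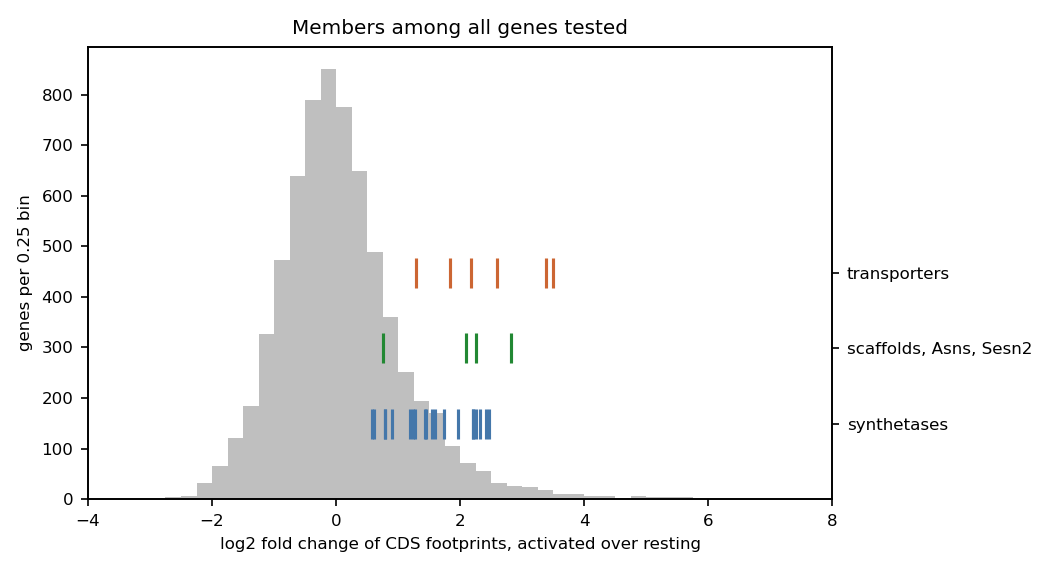
Histogram of the log2 change in CDS footprints over all 6775 genes tested (left axis, genes per bin), with each member as a tick by role. The synthetases run from 0.58 to 2.47 and the transporters from 1.28 to 3.504, while the median of all genes is -0.04.

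Footprints upstream of the coding sequence were spread very unevenly over the members. In the 5' UTR, or leader, 19 of the 31 had at least 10 counts over the 6 libraries. Farsb, Qars, Rars and Yars had 0 leader counts in all 6 libraries. Cars, Farsa, Gars, Hars, Sars, Aimp1, Slc3a2 and Slc7a11 had between 1 and 9 in all. Most leader counts lay on Slc7a1 (759), Slc38a2 (701), Slc1a5 (599), Slc38a1 (393) and Aars (305).

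Slc1a5 had the highest ratio, with 64.8, 75.6 and 49.4 leader counts per 100 CDS counts in resting and 55.6, 64.5 and 70.2 in activated libraries. The groups overlapped. Slc7a1 had 21.5 ± 7.14 per 100 in resting and 22.6 ± 5.58 in activated cells, and Slc38a1 31.2 ± 19.6 and 31.9 ± 5.42 (SD, n = 3). For these too the groups overlapped. Summed by group, the leader of Slc7a1 held 53 resting and 706 activated counts, and its CDS 251 and 3293.

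The groups did not overlap in this ratio for Slc38a2, Sesn2, Iars and Mars. For how many of all 4305 genes tested this held was not computed, so it describes these genes and is no result about the members. Slc38a2 had 49.6, 48.0 and 36.2 leader counts per 100 CDS counts in resting and 35.6, 32.6 and 27.7 in activated libraries, so every activated library was below every resting library. Its ratio had a log2 change of -0.76 (SE 0.26) with each region on its own scaling (edgeR adjusted p = 0.264). Sesn2 had 33.3, 15.4 and 33.3 leader counts per 100 CDS counts in resting and 62.1, 57.1 and 48.5 in activated libraries, with all activated libraries higher. The log2 change of its ratio was 0.87 (SE 0.60, edgeR adjusted p = 0.644), and its resting ratios rest on 7 leader counts in all. Iars and Mars were also higher in every activated library, with log2 changes of 1.21 (SE 0.71, edgeR adjusted p = 0.564) and 2.06 (SE 1.12, edgeR adjusted p = 0.534). Their resting ratios rest on 4 leader counts and 1 leader count in all.

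The ratio of leader to coding counts changed in 0 of the 19 members tested with edgeR at an adjusted p under 0.05, and in 2 (Slc38a2 and Kars) at an unadjusted p under 0.05. Among all 4305 genes tested, 0.256% changed and 0.0929% changed upward (11 genes in all, and 449 at an unadjusted p under 0.05). The median log2 change of the ratio was -0.09 over the 19 members and 0.08 over all genes, and the members' median turned to 0.18 with 1 scaling for both regions. Many of these ratios rest on few counts, so a miss of the threshold does not show an unchanged ratio.

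**Figure D5:**
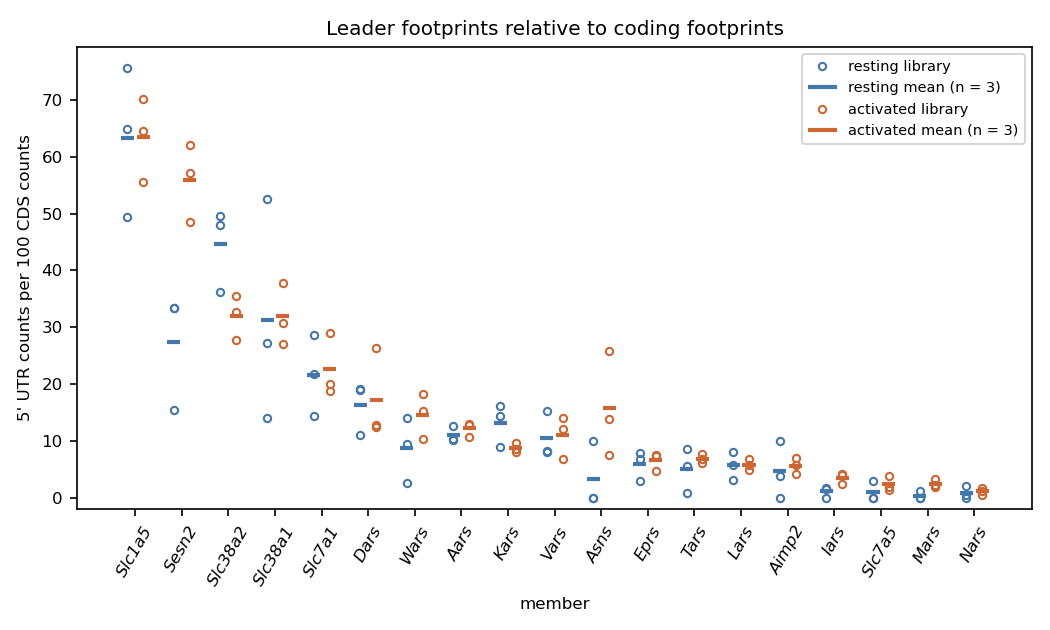
Leader (5' UTR) counts per 100 CDS counts for the 19 members with at least 10 leader counts; circles are libraries and bars the mean of 3. Slc1a5 is highest in both groups, at 63.3 and 63.4, Slc38a2 is lower in all activated libraries, and Sesn2, Iars and Mars are higher in all of them.

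Leader counts taken alone rose for 9 of 13 members that could be tested and fell for 0, against 22.2% of 2200 genes that rose. This test was added after the data were seen. Only 6 of the 13 reached the filter's minimum in every resting library (Aars, Dars, Kars, Slc1a5, Slc7a1 and Slc38a2), and of these 3 rose and 0 fell. The other 7, Eprs, Lars, Tars, Vars, Wars, Slc38a1 and Sesn2, did not, so they entered the test with the help of their activated libraries. No share of risen genes was computed over all genes limited to that minimum. Sesn2, 1 of those 7, had a log2 change of 3.65 with an SE of 0.37 (edgeR adjusted p = 3.60e-06), from 7 to 134 counts. Slc7a1, which reached the minimum, rose by 3.17 (SE 0.27, edgeR adjusted p = 7.33e-07) and Tars by 2.69 (SE 0.46, edgeR adjusted p = 3.32e-04). Aars, Eprs, Lars, Wars, Slc1a5 and Slc38a1 rose as well, by 2.06, 1.44, 1.57, 1.36, 1.57 and 2.41. Dars, Kars, Vars and Slc38a2 missed the threshold, with log2 changes of 0.33, 0.59, 0.98 and 0.53 and adjusted p of 0.443, 0.159, 0.0647 and 0.0658.

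Other regions held few counts of the members. Over the 31 genes together, 3' UTR counts per 100 CDS counts were 2.00, 2.30 and 1.76 in resting and 2.38, 1.46 and 0.952 in activated libraries 2, 3 and 4. Aars alone had 371 counts in the 3' UTR against 2609 in the CDS. Intron counts per 100 CDS counts were 2.52, 1.77 and 1.57 in resting and 1.76, 2.03 and 1.74 in activated libraries, and the groups overlapped in both measures. Most of the members' intron counts lay on Slc3a2, with 665 over the 6 libraries, and Iars came next with 54. Over all genes the intron figure was 9.22, 25.1 and 16.4 in resting and 7.31, 6.94 and 10.3 in activated libraries. RefSeq spans of 13 members overlap another annotated gene, including Mars with Ddit3, Aimp2 with Eif2ak1, Wars with Wdr25 and Aars with Ddx19b. The strand setting of the counting is not stated in the sources used here, so records in such overlaps cannot be assigned with certainty.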

How the data were processed

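The members and gene lists were chosen with earlier results of these data known. The authors deposited 1 table of raw counts per gene and region (CDS in 2 counting modes, 5' UTR, 3' UTR, exons, introns), per the file headers, in Ensembl identifiers. Per the submitters' processing notes, build mm10 was used with TopHat2 2.0.13, Bowtie 1.1.1.0 and an HTSeq of unstated version; the sources used here do not state trimming, annotation release or strand setting. The 5 summary rows that name no gene were left out of library sizes; in the CDS columns, records not uniquely aligned were 65.8% to 79.6% and records in no CDS 11.8% to 14.5% of each library's total.

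Counts in the CDS of all 22322 genes were filtered (filterByExpr, minimum count 10) and tested with edgeR 4.0.16 in R 4.3.3 (TMM, glmQLFit, glmQLFTest, two-sided, group as the only term, Benjamini-Hochberg over 6775 genes). The SE is the log2 change over the square root of F. Leader counts were set against CDS counts in 1 edgeR model with a term per library, for genes with at least 10 leader counts over the 6 libraries. Both fits were also run on simulated counts, with far fewer genes changed than here and, for the ratio, only large changes. That run does not measure power for the leader ratios above. Alternatives were RLE, upper quartile and no scaling factors, no filter, DESeq2 1.42.0, limma 3.58.1 (voom), a replicate block, other counting columns and leaving out each library. Values in every library are given for the 2 highest and 2 lowest log2 changes of each role and for members not tested or not past the threshold, and others are summarised; some others were added. Protein lengths were not used, so levels of different genes are not compared, and the other pathway genes and cell type markers of the design could not be matched to Ensembl identifiers. Promoter windows come from RefSeq, GRCm38.p6, matched by symbol, with Mars listed there as Mars1. The stretch around the matches in the Aars window is not reported here.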

Additional observations from a re-analysis of the deposited data

How the results depend on the processing

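Of 450 member values under 15 alternatives (30 members each), 440 kept direction and side of the threshold, 10 missed the threshold and 0 reversed. These were Qars in 6 alternatives, Dars in 2, and Farsa and Aimp1 in 1 each. The median log2 change of the 30 members, 1.79, was 1.65 with upper quartile factors and 1.45 with library totals alone, where the median of all genes tested was -0.18 and -0.38; it was 1.68 to 1.90 without each library. The members that rose numbered 26 to 31 in all alternatives, 28 at an adjusted p under 0.01 and 29 to 30 without each library. Slc7a11 was tested only without the filter. The difference in the share of counts, 1.02 percentage points, was 0.913 when exon counts were used, and lay between 1.00 and 1.04 when any 1 library was left out. No ratio of leader to coding counts was called among the members under any alternative, including leaving out each library. Over all genes such calls, 11 with the main settings, numbered 0 with 1 scaling for both regions, 20 with at least 30 leader counts and 1 to 17 without each library. With a replicate block 30 members rose, with a median of 1.78, and the block changed no call of a member in CDS counts or in the ratio; in leader counts alone it raised the calls from 9 to 10. Over all genes the block raised the calls in CDS counts from 3097 to 3455. Same-numbered libraries deviated together at correlations of 0.12, 0.07 and 0.22 across genes, and libraries of different number at -0.148 to 0.004. The labels name no pairing, so the main fit had no block. Whether the numbers mark pairs was not tested. Depth limits the leader results and the resting values of Asns and Sesn2.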
